A study of Homo sapiens with 3 samples.

Results

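Across the nuclear genome, 1511 loci carried a CSTF2tau peak in each of 3 biological replicates, out of 172029 loci listed in any of them (0.878%). A locus is a stretch of merged peaks: all nuclear peaks of the 3 replicates were pooled, and same-strand peaks with an overlap of 1 nt or more were joined. A further 13195 loci had a peak in exactly 2 replicates and 157323 in exactly 1. Presence of a peak in each replicate chose these loci, so their presence, their number and their higher read counts are given as a description and not as a test. The study has 1 group of WT cells of the established neuroblastoma line BE(2)-C, derived from a bone marrow metastasis, with no treatment named and no input or control antibody library used here. RNA was crosslinked to protein with ultraviolet light in living cells, partly digested and recovered with an antibody against CSTF2tau (sCLIP). The files give Ensembl gene IDs without names, and none matched the reference table, so loci are given by hg19 position, strand and gene ID. For the same reason the cell line was not checked against marker genes.

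CSTF2tau is the autosomal paralogue of CSTF2, the subunit through which cleavage stimulation factor contacts RNA. That factor binds G- and U-rich RNA just downstream of a polyadenylation site and, together with the cleavage and polyadenylation specificity factor that reads the upstream polyadenylation signal, directs cutting of the transcript before the poly(A) tail is added. Its subunits also travel with RNA polymerase II along the gene body, and the series' title names small nuclear RNA processing as the process it set out to study. Crosslinking records contact at the time of irradiation and does not by itself show that the RNA was cut there.

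The replicates differed in size: 733437, 105534 and 384227 reads lay in nuclear peaks of replicates 1, 2 and 3, in 97561, 16659 and 74026 loci. A read number is the last number in the authors' peak name, read here as the reads of that peak. Replicate 2 was the smallest list, and 9053 of the 13195 loci in exactly 2 replicates lacked a peak there, against 1519 that lacked one in replicate 1 and 2623 in replicate 3. The 1511 loci were 1.55%, 9.07% and 2.04% of the loci of replicates 1, 2 and 3. Of the nuclear reads of replicate 1 they held 3.87%, with a 95% exact Clopper-Pearson interval of 3.83 to 3.92%. The same share was 13.3% (13.1 to 13.5%) for replicate 2 and 4.20% (4.14 to 4.27%) for replicate 3. The mean was 7.12% ± 5.33 (SD, n = 3), with replicate 2 far above the other two. The intervals cover counting error only. They leave out how reads were assigned: a locus counts the reads of 1 gene ID, whereas the nuclear totals sum every listed peak line. With each distinct peak position at these loci counted once, the shares were 4.23%, 14.2% and 4.50%, outside these intervals. Almost no peak was shared exactly: 2 to 3 peaks had identical coordinates in any pair of replicates.

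Single loci were shallow. In replicate 1 a locus had a median of 12 reads (quartiles 7 and 22, highest 333), in replicate 2 a median of 6 (4 and 11, highest 121) and in replicate 3 a median of 8 (5 and 13, highest 100). The other nuclear loci had medians of 5, 4 and 4 reads. At the lower limit of 3 reads, where a peak is just listed, stood 107, 262 and 170 of the 1511 loci in replicates 1, 2 and 3. A locus at that limit takes 0.000409%, 0.00284% and 0.000781% of the nuclear reads of the respective replicate, so shares in replicate 2 start from a higher value. Its share was the highest of the 3 at 1316 of the 1511 loci.

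The limit of the rule itself is an overlap of 1 nt. Of the 1511 loci, 1291 (85.4%) had at least 1 nt covered by a peak of every replicate, with a median common stretch of 52 nt, and 81 of these had a common stretch under 10 nt. The other 220 were joined as a chain, in which no position was covered in all 3. The chained loci were wider (median 194.5 nt against 152 nt) and had medians of 9, 6 and 6 reads in replicates 1, 2 and 3, against 13, 7 and 8. Just outside the rule were 108 loci in exactly 2 replicates with a peak of the missing replicate no more than 10 nt away. Their medians, over the replicates with a peak, were 7, 6 and 7 reads, and 1059 loci had such a peak within 100 nt.

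To find loci with signal in every replicate, loci were ranked by their lowest share over the replicates. The 15 highest lay under 12 gene IDs, 7 of them on the minus strand, were 96 to 461 nt wide, and had 59 to 333 reads in replicate 1, 9 to 74 in replicate 2 and 32 to 100 in replicate 3. First was a 96 nt locus at chr11:2151910-2152005 (-) under ENSG00000167244, with 115, 28 and 100 reads in replicates 1, 2 and 3. These are 0.0157%, 0.0265% and 0.0260% of the nuclear reads, a mean of 0.0227% ± 0.00613 (SD, n = 3), so replicates 2 and 3 nearly coincided and replicate 1 was lower.

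Next was a 424 nt locus at chr14:39649807-39650230 (+), ENSG00000100941, with 109, 18 and 56 reads. Its shares were 0.0149%, 0.0171% and 0.0146%, which differed 1.17-fold between the highest and the lowest. This was the most even of the 194 loci that had at least 10 reads in each replicate. The locus at chr11:2153077-2153288 (-), again under ENSG00000167244, had the most reads of any in replicate 1, with 333, 37 and 44 reads. There, 32 overlapping peaks were listed in replicate 1, against 7 and 6 in replicates 2 and 3.

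A pair of gene IDs with long spans and many loci supplied 4 of the 15. Under ENSG00000204442, the locus at chr13:108375540-108375881 (-) had 80, 31 and 42 reads and that at chr13:108267577-108267859 (-) had 105, 12 and 39. Under ENSG00000185565, chr3:117383030-117383447 (-) had 88, 15 and 40 reads, and its shares differed 1.37-fold. The locus at chr3:117708213-117708623 (-), with 60, 23 and 84 reads, lay at the 5' edge of the listed span of that gene ID and had a stretch of 283 nt covered in all 3 replicates.

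The other loci of the 15 were scattered over the genome. On the plus strand of chr11, chr11:65192050-65192171 (ENSG00000245532) had 83, 21 and 39 reads. Loci at the far 3' part of their listed span were chr16:29821996-29822269 (+, ENSG00000103495), with 146, 33 and 36 reads, chr5:179156262-179156722 (+, ENSG00000127022), with 158, 13 and 33, and chr8:26513967-26514216 (+, ENSG00000092964), with 69, 9 and 32. The last of these had the smallest spread of the 15, with shares of 0.00941%, 0.00853% and 0.00833%. The remaining 4 were chr14:101378130-101378331 (+) with 73, 28 and 44 reads, chr21:44488071-44488474 (-) with 136, 19 and 38, chr8:24775645-24775957 (+) with 62, 23 and 39, and chr1:28836643-28837074 (+) with 59, 74 and 47.

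Ranked by mean share, 8 further loci followed, and replicate 2 had the highest share at each. The first, chr17:62223683-62223768 (+, ENSG00000266402), had 16, 121 and 8 reads, and chr19:54711520-54711628 (+, ENSG00000170889) had 4, 104 and 10, a 181-fold spread of shares and the widest of the 1511. Others were chr2:16079921-16080466 (-, ENSG00000233718), with 43, 81 and 3 reads, chr9:100363517-100363647 (+, ENSG00000136842), with 8, 79 and 6, and chr1:62162980-62163176 (-, ENSG00000162604), with 22, 66 and 27. The least uneven was chr8:72244403-72244812 (-, ENSG00000104313), with 51, 49 and 80 reads and a 6.68-fold spread.

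**Figure D1:**
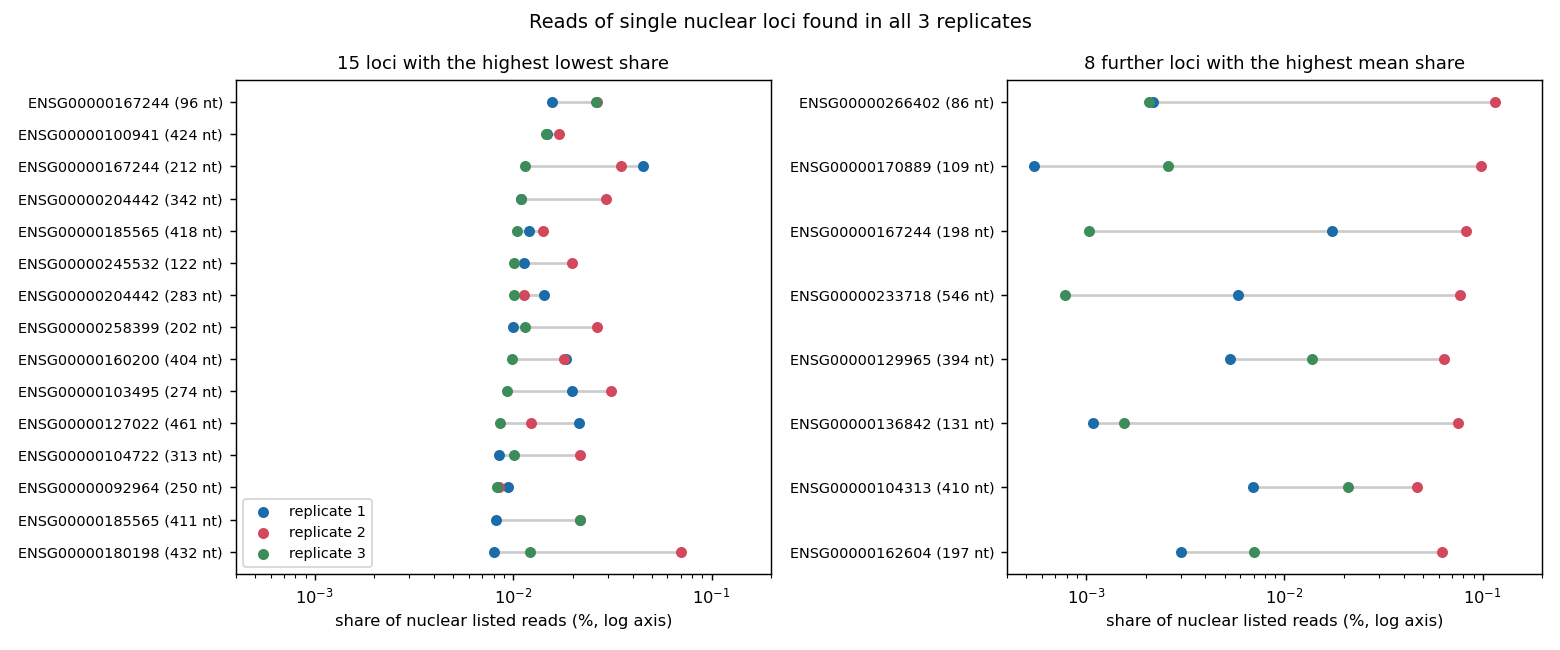
Share of nuclear listed reads (percent, log axis) in each replicate for the 15 loci with the highest lowest share (left) and the 8 further loci with the highest mean share (right); each row is a locus, named by gene ID and width, points are replicates and the grey line joins the lowest to the highest. On the left the shares differ 1.13- to 8.72-fold, and on the right replicate 2 is the highest at all 8.

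Over the 1511 loci the highest and lowest share differed by a median of 5.05-fold (quartiles 3.07 and 8.69). The spread was under 2-fold at 131 loci and over 10-fold at 288. Read numbers of replicates 1 and 2 were weakly related across these loci (Spearman rho 0.22, Pearson r on log2(reads + 1) 0.26). For replicates 1 and 3 the pair of values was 0.30 and 0.35, and for replicates 2 and 3 it was 0.25 and 0.30. These describe 1511 loci of 3 libraries, many of which share a transcript. Among the 194 loci with at least 10 reads in each replicate the median spread was 4.99-fold, close to that of all 1511. The most uneven of the 194 was chr11:2150594-2150738 (-, ENSG00000167244), with 11, 53 and 57 reads.

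The loci lay under 690 gene IDs, of 12487 that led a nuclear locus (5.53%). Most gene IDs held a single one: 457 had exactly 1, 110 had exactly 2 and 123 had 3 or more. These 123 held 834 of the 1511 loci, and 61 gene IDs with 5 or more held 624. The leading 2 gene IDs alone held 152, or 10.1%.

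ENSG00000204442 (chr13:107821338-108518283, -), a listed span of 697 kb, held 84 of the loci, out of 1557 loci assigned to it (5.39%). Their summed reads were 2307, 966 and 1352 in replicates 1, 2 and 3, or 17.8%, 34.9% and 21.9% of all reads at loci of that gene ID. ENSG00000185565 (chr3:115521383-117715978, -) held 68 of 1672 (4.07%), with 1353, 473 and 862 reads. Both exceeded the share of all nuclear loci found in 3 replicates, and without these 2 gene IDs that share was 0.805%.

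Next in number were ENSG00000230590 (chrX:73238788-73512402, -) with 24 of 378 loci and ENSG00000218336 (chr4:183066281-183722504, +) with 23 of 409. They were followed by ENSG00000145362 (chr4:113740306-114304950, +) with 17 of 516 and ENSG00000144868 (chr3:132764909-133116379, +) with 14 of 447. Some gene IDs with shorter spans had a larger part of their loci recovered, though not all did: ENSG00000258399, with a span of 40.7 kb, had 3.30%. ENSG00000167244 (chr11:2150401-2159912, -), with a span of 9.51 kb, had 13 of 83 (15.7%), and ENSG00000125850 (chr20:17937651-17949124, -), with 11.5 kb, had 11 of 48 (22.9%). ENSG00000253974 (chr8:31884659-31994967, +) had 13 of 91 (14.3%), ENSG00000164970 (chr9:34398130-34458120, -) 11 of 75 (14.7%) and ENSG00000148120 (chr9:97490872-97849528, +) 11 of 215 (5.12%). Among the 2273 gene IDs with at least 20 loci, the highest part was 6 of 24, for ENSG00000258344 (chr12:54674672-54732996, +).

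Recovery was higher where a gene region was more densely filled with loci. Among gene IDs with at least 20 loci, 3 of 7805 loci (0.0384%) were found in all replicates where loci covered at most 1% of the listed span. The figure was 0.128% for 1 to 2%, 0.497% for 2 to 5%, 1.95% for 5 to 10%, and 421 of 10199 (4.13%) above 10%. Loci covered a median of 5.72% of the span of the gene IDs that held such a locus and 2.53% of the span of those that held none. The cover includes the loci in all 3 replicates themselves, whose width is tied to the rule, so cover and recovery are not independent measures. The part of chance overlap in the higher recovery was not tested. For the short regions the cover was 26.9% (ENSG00000167244) and 58.5% (ENSG00000125850).

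**Figure D2:**
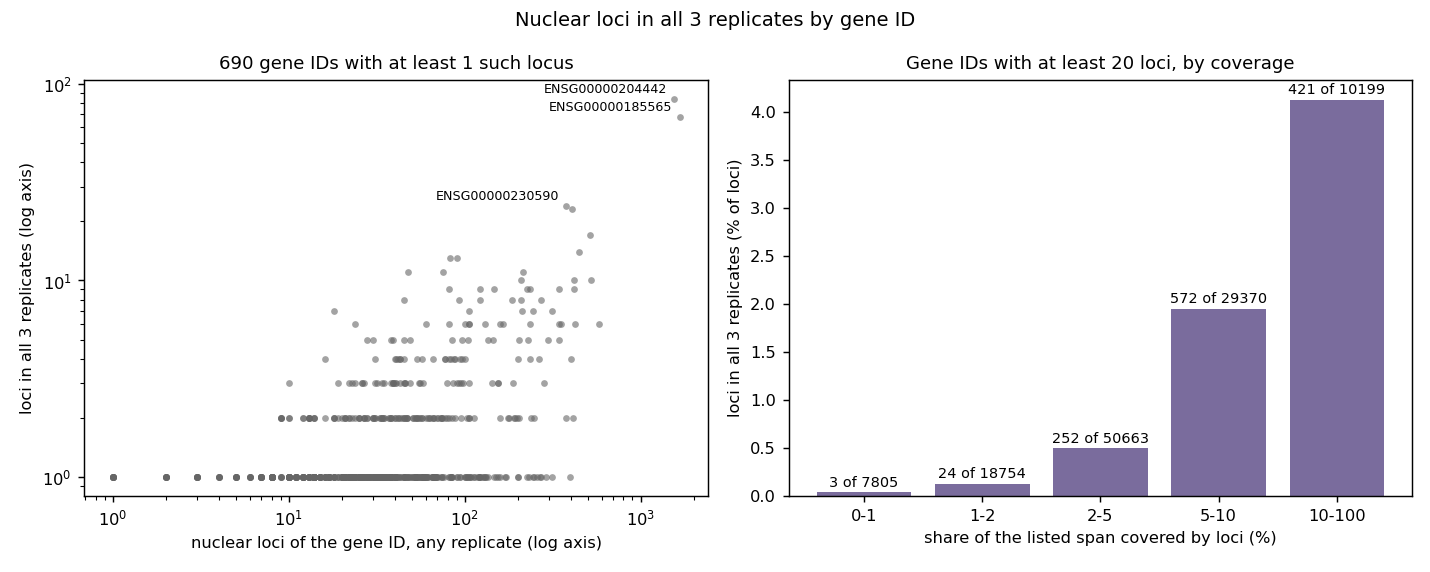
Left, for each of the 690 gene IDs (points), the number of its nuclear loci in any replicate against the number in all 3 replicates, on log axes. Right, the percentage of loci found in all 3 replicates (bars, with counts) for gene IDs with at least 20 loci, grouped by the share of the listed span that loci cover; it rises from 0.0384% to 4.13%.

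Many of the loci lay close together. On its own strand, 786 of the 1511 (52.0%) had another of them within 5 kb and 458 (30.3%) within 1 kb, whereas 435 had none within 100 kb. The median gap was 4.10 kb. For 34 loci the nearest neighbour was 0 or 1 nt away, which is a border between 2 listed peaks rather than a gap. Among loci in exactly 2 replicates, 60.1% had another of their kind within 5 kb, but these are 13195 and lie more densely, so the percentages cannot be compared directly. The same share over all nuclear loci is not given here. Closeness is therefore a description and is not shown to be particular to these loci. Joining neighbours within 5 kb gave 239 runs, of which 135 held 2 loci, 65 held 3 or 4 and 39 held 5 or more. In 229 runs the loci were all assigned to 1 gene ID. Runs of other nuclear loci were not counted for comparison.

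The run with the most loci held 20 in 9.34 kb at chr11:2150594-2159932 (-), 13 under ENSG00000167244 and 7 under ENSG00000129965. Replicate 1 had 1391 reads in it, replicate 2 had 520 and replicate 3 had 487. The mean share was 0.270% ± 0.196 (SD, n = 3). Loci in all 3 replicates covered 28.1% of its length, and 19 further loci there had a peak in exactly 2 replicates and 57 in exactly 1. Its loci ranged from 28 nt, the narrowest of the 1511, to 394 nt. The narrowest, at chr11:2153363-2153390, had 91, 5 and 14 reads. The replicates did not share one order along the run: replicate 1 was highest at chr11:2153077-2153288 (333 reads), replicate 2 at chr11:2151224-2151421 (127, 87 and 4 reads) and replicate 3 at chr11:2151910-2152005 (100 reads).

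The run with the next most, 18 loci in 17.0 kb at chr13:108324770-108341778 (-), lay inside ENSG00000204442 between 0.25 and 0.28 of the way from the 5' to the 3' end of its listed span. It had 434, 319 and 315 reads. Another 11 loci of the same gene ID formed a run at chr13:108393593-108415723, with 148, 133 and 140 reads. ENSG00000230590 had 12 loci in 17.1 kb at chrX:73423827-73440892 (-), with 172, 111 and 154 reads. ENSG00000125850 had its 11 loci in 8.08 kb at chr20:17940382-17948457 (-), with 278, 128 and 104 reads. Runs of 11 loci also lay at chr4:183117948-183136225 (+), with 132, 112 and 135 reads, and at chr9:34443673-34458031 (-), with 126, 95 and 153. In these last runs the read sums of the 3 replicates were close, although replicate 1 had by far the most nuclear reads in all, so replicate 2 had the highest share in each.

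Among the gene IDs with the most loci, some had them mainly near one end of the span, as did their loci in general. Others had them spread out, or placed otherwise than their loci in general. In ENSG00000185565, 64 of 68 lay in the first 25% of the listed span, counted from the 5' end, where 64.1% of all its loci lay. In ENSG00000218336, 21 of 23 lay there against 53.5% of all its loci, and in ENSG00000164970 all 11 did, against 60.0%. ENSG00000204442 had 45 of 84 in the first 25% (53.6%) and none in the last 25%, close to the 50.3% and 2.18% of all its loci. ENSG00000253974 was spread from 0.14 to 0.98 of its span. In ENSG00000144868, 42.9% lay in the last 25%, against 13.2% of all its loci, and 21.4% in the first 25%, against 41.6%. ENSG00000230590 had 33.3% in the first 25%, against 49.7% of all its loci. At the 3' side, ENSG00000148120 had all 11 in the last 25%, where 80.5% of its loci lay, and 8 of them in the last 10%. These 8 lay within chr9:97843752-97848990. The locus at chr9:97846515-97846710 had 47, 57 and 35 reads and that at chr9:97844187-97844468 had 56, 51 and 22. The loci of ENSG00000145362 lay between 0.018 and 0.45 of its span, with 35.3% in the first 25% against 34.9% of all its loci, of which 2.33% lay in the last 25%.

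**Figure D3:**
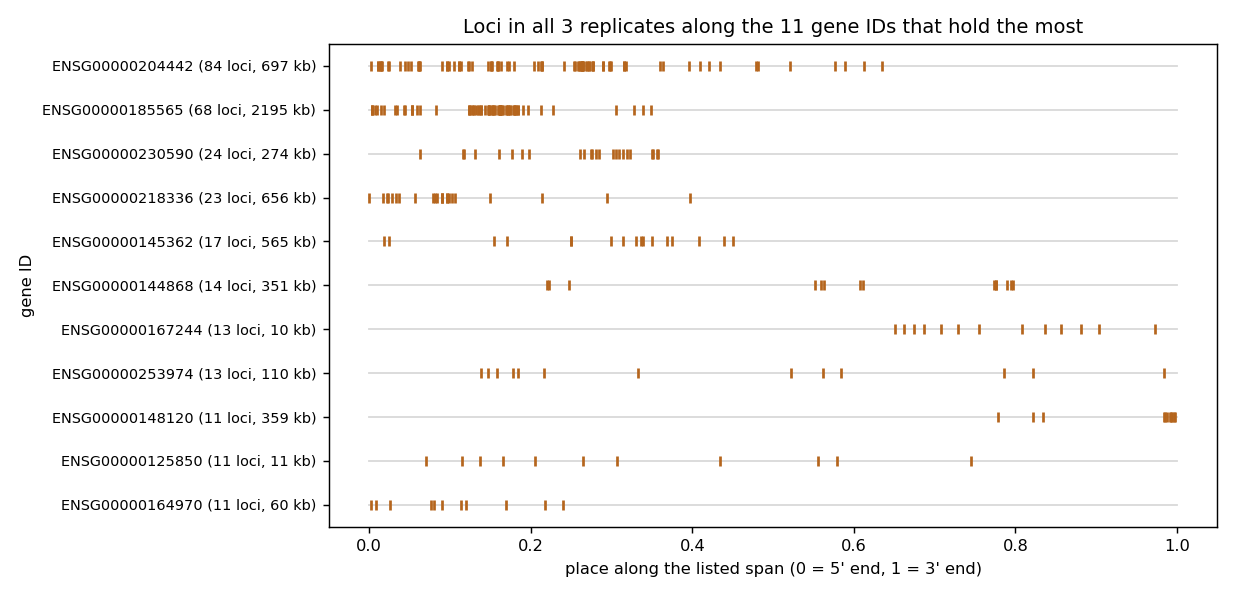
Each row is 1 of the 11 gene IDs with at least 11 loci in all 3 replicates, and each tick is 1 such locus, placed from 0 at the 5' end to 1 at the 3' end of the listed span. In ENSG00000185565 and ENSG00000164970 the ticks lie mostly near the 5' end, and in ENSG00000148120 all lie in the last 25%.

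The factor acts where transcripts are cut, so the place of the loci along their gene region was examined. The listed span of a gene ID runs from its first to its last peak in any replicate, for gene IDs with at least 5 loci, and its ends are not annotated transcript ends. Of the 1511 loci, 1485 had a span. The last 10% of the span held 335 of them (22.6%) and the first 10% held 255 (17.2%), against 14.9% and 17.1% of all nuclear loci with a span. Loci in exactly 2 replicates had 18.5% and 18.0%, and those in exactly 1 had 14.6% and 17.0%. The middle was thinner, down to 4.98% of the 1511 loci with a span in the sixth of 10 equal steps. The other classes were thinner there too, with 6.18% of loci in exactly 2 replicates and 7.64% of those in exactly 1.

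The 335 loci near the 3' end were spread over 238 gene IDs, whose spans had a median of 68.4 kb when counted per locus. The 255 near the 5' end lay under 142 gene IDs, with a median span of 175 kb, and 55 of them belonged to ENSG00000204442 (21), ENSG00000185565 (17) and ENSG00000218336 (17). At most 8 of the 3' loci belonged to a single gene ID, ENSG00000148120, followed by ENSG00000131711 with 5 and ENSG00000166402 with 5. Of all 1511, 40 were the outermost 3' locus of their gene ID and 25 the outermost 5' locus. For scale, there were 7086 listed spans and 160916 nuclear loci with a span. The share of outermost loci among all nuclear loci was not computed, so these counts do not show a preference for the outermost place.

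By reads, the last 10% held 24.8%, 23.6% and 20.1% of the reads of these loci in replicates 1, 2 and 3, and the first 10% held 15.5%, 14.6% and 17.5%. Expressed as log2 of last over first, this was 0.68, 0.70 and 0.20, a mean of 0.53 ± 0.28 (SD, n = 3). An exact sign-flip test, two-sided, gave p = 0.25, the smallest p that 3 replicates can give. The rule puts the same loci in every replicate, so these ratios weight a fixed set of positions and are not independent observations of place. With each locus counted once, the log2 ratio of these loci was 0.39 in replicates 1, 2 and 3. The test therefore cannot decide whether the replicates independently share the sign. In the other nuclear loci the log2 ratio by reads was -0.25, 0.92 and -0.28, a mean of 0.13 ± 0.69. The difference between these loci and the others was 0.93, -0.22 and 0.49, a mean of 0.40 ± 0.58 (exact two-sided sign-flip test, p = 0.5), so replicate 2 went the other way. Against the other loci of the same 690 gene IDs the difference was 1.22, 0.42 and 0.78, a mean of 0.81 ± 0.40 (exact two-sided sign-flip test, p = 0.25). Both differences start from the same fixed set of loci in each replicate, so their tests carry the same limit.

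The ratio differed with the set of replicates in which a peak was required, and the cause was not tested. Loci found in both replicates 1 and 3, whatever replicate 2 showed, numbered 10536 and had log2 ratios of -0.02 and -0.28. The 4118 loci found in both replicates 1 and 2 had 0.64 and 0.67, and the 2974 found in both replicates 2 and 3 had 0.76 and 0.36. With the outer 20% of the span at each end the mean over the 1511 loci was 0.05 ± 0.22, and without the leading 2 gene IDs it was 0.85 ± 0.27. For loci with 1 gene ID only, the ratios were 1.31, 1.07 and 0.70 (mean 1.03), and the mean difference from the other loci was 0.82, with 0.03 in replicate 2, which there did not go the other way.

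**Figure D4:**
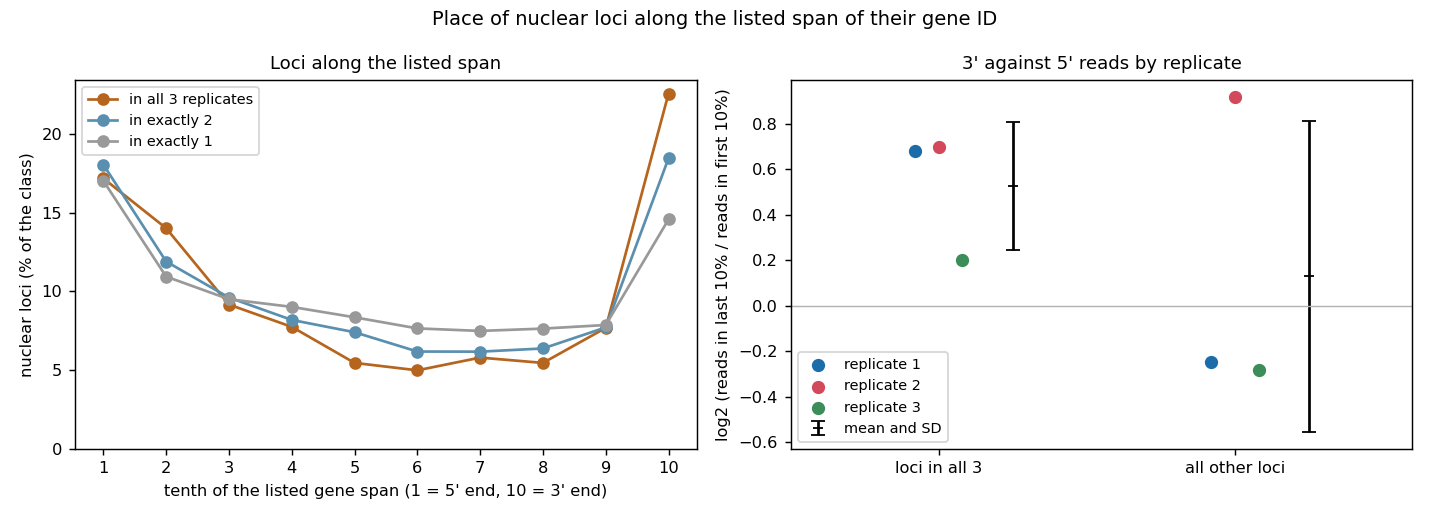
Left, percentage of nuclear loci in each of 10 equal steps of the listed span of their gene ID, from the 5' end (1) to the 3' end (10), for loci in all 3, exactly 2 and exactly 1 replicates; the last step holds 22.6%, 18.5% and 14.6%. Right, log2 ratio of reads in the last 10% to the first 10% of the span per replicate (points), with the mean and SD over 3 replicates, for loci in all 3 and for all other nuclear loci.

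Each locus joins at least 3 peaks, and a wider stretch can more easily meet a peak of every replicate, so width is tied to the rule. The median width was 159 nt (quartiles 120 and 210), against 116 nt for loci in exactly 2 replicates and 72 nt in exactly 1, while single peaks inside them had a median of 76, 82 and 84 nt in replicates 1, 2 and 3. Together they cover 263 kb. A single listed peak made up the replicate's part at 1046, 1307 and 1277 of the loci. The widest was 580 nt, at chr6:73340630-73341209 (+, ENSG00000185760), with 36, 16 and 32 reads, and the next was 563 nt, at chr7:105139042-105139604 (-, ENSG00000091127), with 53, 8 and 34.

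Each listed peak also carries an inner stretch of at most 4 nt, whose meaning is not given in the sources used here. Its place was compared for the peak with the most reads in each replicate. The stretches of replicates 1 and 2 lay a median of 28 nt apart (quartiles 12 and 59), those of 1 and 3 29 nt and those of 2 and 3 26 nt, inside peaks with a median width of 88 nt. They were within 10 nt at 335, 321 and 389 of the 1511 loci for these pairs. All 3 stretches lay within 10 nt of each other at 97 loci (6.42%) and within 4 nt at 14. Overlap of the peaks itself limits how far apart the stretches can be, so these distances are a description.

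**Figure D5:**
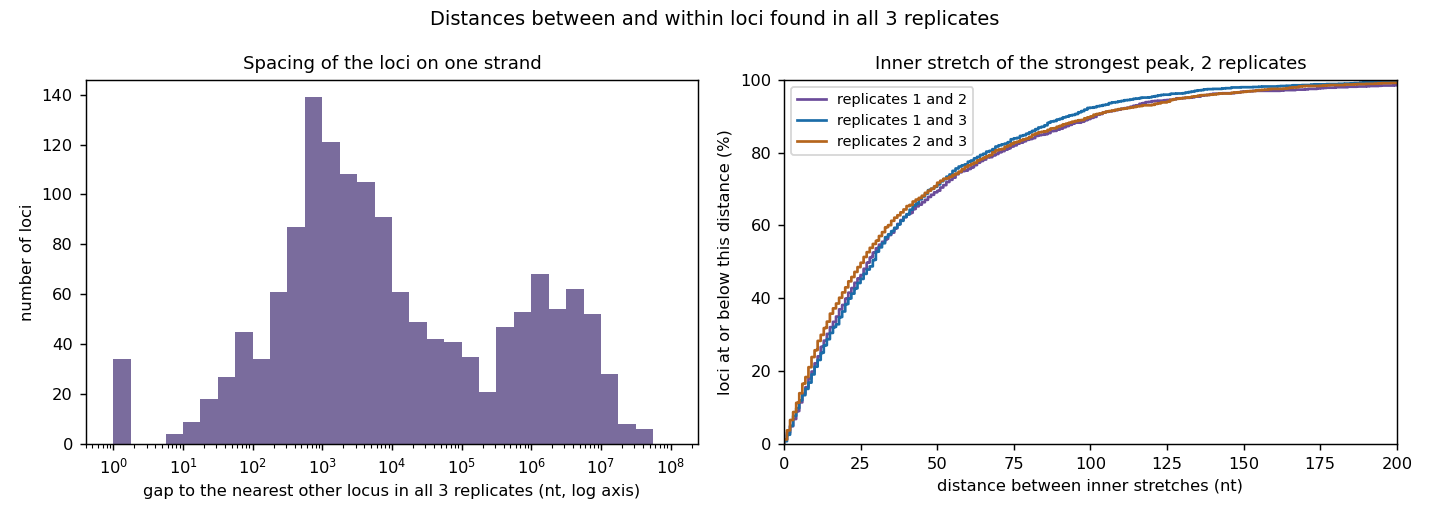
Left, number of loci by the gap in nt to the nearest other locus in all 3 replicates on the same strand (log axis); the first bar holds the 34 loci with a gap of 0 or 1 nt. Right, cumulative percentage of the 1511 loci by the distance in nt between the inner stretches of 2 replicates, for each pair of replicates; the medians are 28, 29 and 26 nt.

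More than 1 gene ID was listed at 224 of the 1511 loci (14.8%), against 4.54% of all nuclear loci, 8.47% of those in exactly 2 replicates and 4.11% in exactly 1. These 224 had a median width of 167.5 nt, against 157 nt for the rest. Gene IDs were counted over all pooled peaks of a locus, so a wider locus joined from more replicates can more easily hold several. This share is therefore tied to the rule and is given as a description. At 8 loci no gene ID was common to the 3 replicates. ENSG00000143933 led 3 of these. Only 3 of the 1511 (0.199%) were overlapped by a locus on the opposite strand, against 0.135% of all nuclear loci.

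The minus strand held 827 of the loci (54.7%), against 53.6% of all nuclear loci, and without the leading 2 gene IDs, both on the minus strand, it held 49.7%. By reads it held 54.9%, 52.5% and 58.4% in the 3 replicates in turn (mean 55.3% ± 2.95, SD, n = 3), and without those 2 gene IDs it was 48.3%, 47.1% and 51.8%. In the other nuclear loci it was 48.6%, 49.8% and 63.7%. Replicate 3 was thus the highest in each case, by less in these loci than in the others, and this difference was not tested.

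By chromosome, chr13 had the largest part of its loci in all 3 replicates, 104 of 6069 (1.71%), followed by chrX with 54 of 3952 (1.37%) and chr3 with 146 of 13148 (1.11%). Without the leading 2 gene IDs, chr13 had 0.443% and chr3 0.680%, both below the 0.805% of all nuclear loci without them. On chrX, 24 of the 54 belonged to ENSG00000230590, which had 378 loci in all. The chrX part without that gene ID was not computed, so it is not shown to hold for the rest of the chromosome. The smallest part was on chr18, with 3 of 2107 (0.142%).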

How the data were processed

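CSTF2tau sCLIP was analysed in 3 replicates of 1 group. The authors deposited a peak list per replicate, with a p-value per peak (below 0.05) that was used only as an alternative filter. Per the submitters' processing notes the build was hg19 and the tools included FastQC, SAMtools, STAR and bedtools. No source used here gives the peak caller, its settings or any removal of duplicate reads. Each deposited peak name ends in a whole number of at least 3, taken as reads because it was lower where the p-value was higher (Spearman rho -0.988, -0.973 and -0.964). This meaning is not stated. Sequencing depth is unknown.

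Mitochondrial peaks (116, 126 and 156 lines) were left out. At a locus, each replicate's reads are those of the gene ID with the most reads there, and the locus takes the gene ID with the most over all replicates. Shares divide by all nuclear listed reads. Loci and gene IDs were named by rank: lowest share (15), mean share (8), number of loci (10, here 11 because of a tie), runs (5), evenness (5 at each end) and width (3), and some of these are given as examples. The chr18 count, the gene ID with the largest recovered part, the narrowest locus, ENSG00000258399, further runs and the chr9 loci were named after their values were seen. Gene lists were not used, since none of the 13356 gene IDs matched a symbol. The merging was tested on simulated data, where 1418 of 1418 planted loci were recovered. The planted peaks overlapped widely at well separated sites, so chained, barely overlapping or crowded loci were not tested. The loci and lists were chosen with earlier results of these data known. Python 3.11.15, pandas 2.3.3, numpy 2.4.6 and scipy 1.17.1 were used.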

Additional observations from a re-analysis of the deposited data

How the results depend on the processing

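Of 85 alternative values, 55 kept to a tolerance, 29 went past it and 1 reversed its sign. The tolerance was 1.5 times for the count, 1 SD of the replicates for shares of reads, the 95% interval for medians and for the share with a neighbour, and the same sign for the end ratios, whose test cannot pass 0.05 with 3 replicates. These 95% intervals treat loci, or pooled distances between replicates, as independent. Many loci share a transcript or are each other's neighbour, and the spread between replicates is left out. The intervals are thus a working limit, and the numbers kept and gone past depend on them. The number of loci was 805 with peaks no weaker than the median p of their list and 751 with peaks of at least 5 reads. Leaving out 1 replicate gave 2974 to 10536 loci in both others, the most without replicate 2. It gave a mean share of reads of 15.6 to 17.9%, a median width of 111 to 123.5 nt, inner stretches 20 to 25 nt apart, 53.8 to 59.6% with a neighbour within 5 kb and a minus-strand share of 51.9 to 57.8%. Leaving out 1 replicate also rebuilt the listed spans from both others. The mean log2 end ratio ran from -0.15 without replicate 2 to 0.65 without replicate 3, and the difference from other loci from 0.06 without replicate 2 to 0.42 without replicate 1. For loci with 1 gene ID only these were 1.03 and 0.82. The median width was 170 nt for the same filter on p, 172 nt with peaks of at least 5 reads, 152 nt with an overlap of at least 10 nt or with a nucleotide covered in all 3 replicates, and 168 nt with loci up to 1 nt apart joined. With a nucleotide covered in all 3, the inner stretches lay 23.5 nt apart and 49.4% had a neighbour. This share was 48.3% for loci with 1 gene ID, 48.6% without the leading 2 gene IDs, 30.3% within 1 kb and 63.2% within 20 kb. The minus-strand share was 49.0% without the leading 2 gene IDs. The cause of these shifts was not tested. Joining loci up to 1 nt apart, comparing with the same gene IDs and leaving out the leading 2 were chosen after seeing the data. No paired comparison between groups was possible because there is 1 group. The differences from other loci in the end ratio were taken within each replicate.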
